A study of Mus musculus with 8 samples.

Results

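The genes described here encode the T cell receptor complex and the molecules next to it: the CD3 chains (Cd3d, Cd3e, Cd3g and Cd247), the co-receptors (Cd4, Cd8a and Cd8b1), the co-stimulatory receptor Cd28 and the proximal kinases Lck and Zap70. These 10 genes were chosen by name, and each was read through a probe set annotated to that gene alone, the brightest by mean of all arrays. Of the 10, 9 were measured, each by 1 such probe set, out of 19938 genes in all; Lck was not analysed here, because no annotated probe set carried its symbol. Expression was measured in whole liver of 4 mice transgenic for constitutively active IKK2 and of 4 wild type control mice, each on its own Affymetrix array. All mice were 4 weeks old and came from mixed C57BL/6 and NMRI stock that was backcrossed to C57BL/6 at least 4 times. The transgene stands behind the LAP promoter, which is active in hepatocytes, so the kinase is switched on in the parenchyma and not by design in T cells. The comparison asks how the transcripts of this receptor complex in the whole organ differ when IKK2 is active in hepatocytes.

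A T cell recognises peptides on MHC molecules through the variable chains of its receptor, which have no signalling tails of their own. The CD3 gamma, delta and epsilon chains and the zeta chain encoded by Cd247 carry the signal into the cell through phosphorylated tyrosine motifs. CD4 and CD8 bind the MHC molecule beside the receptor and bring the kinase LCK to it, ZAP-70 docks on the phosphorylated chains, and CD28 gives the second signal. Liver holds T cells, NK cells and NKT cells in its sinusoids, together with the macrophages called Kupffer cells.

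Array medians lay between 4.88 and 5.08 on the log2 scale. Hepatocyte markers were bright in all 8 arrays, with list means of 12.5 to 12.7 in both groups and 0 of 10 genes past limma's test (1 at an unadjusted p under 0.05, Ttr at -0.29). Ikbkb, the gene of the kinase, read 8.38 to 9.09 in the transgenic livers and 7.44 to 7.85 in the controls (limma log2 fold change 1.00, adjusted p = 0.0185). The call for Ikbkb was lost in 5 of 17 alternative analyses, those that left out transgenic replicate 1 (0.0688) or control replicates 1 to 4 (0.0546, 0.0691, 0.0565 and 0.0566). No background signal was used here, and in bulk tissue more cells of a type cannot be told apart from more RNA per cell. All log2 fold changes below are transgenic minus control from limma, with its standard error (SE). A gene passed at a p under 0.05 after Benjamini-Hochberg adjustment over all 21789 probe sets with 1 gene symbol. The share of all genes at an unadjusted p under 0.05 was not counted, so counts at that p have no background here.

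The receptor complex gave calls in both directions. Cd3g and Cd8b1 rose, Zap70 fell, and the other 6 measured genes did not pass. That is 2 of 9 higher against 4.67% of all genes, and 1 of 9 lower against 1.67% of all genes. In either direction 6.34% of all genes were called. These counts depend on single arrays. Higher genes of the complex numbered 1 without transgenic replicate 1 or control replicates 1, 3 or 4, and 3 without transgenic replicates 3 or 4. Leaving out 1 array at a time, Zap70 kept its call without transgenic replicate 4 and lost it without any of the other 7. Over all genes the 1265 calls became 202, 2034 and 2580 without transgenic replicates 1, 3 or 4, and 269, 202, 238 and 300 without control replicates 1 to 4. Log2 fold changes were positive for 8 of the 9, with a median of 0.32, against -0.07 over all genes. The groups did not overlap for 4 genes with the transgenic livers above (Cd3g, Cd8a, Cd8b1 and Cd28) and for 1 with them below (Zap70). Of all genes, 11.2% separated upward and 11.2% downward. At an unadjusted p under 0.05, 5 of the 9 passed. In limma's test Cd28 had an unadjusted p of 0.045 and an adjusted p of 0.143. A large share of all genes thus lay under 0.05 too.

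**Figure D1:**
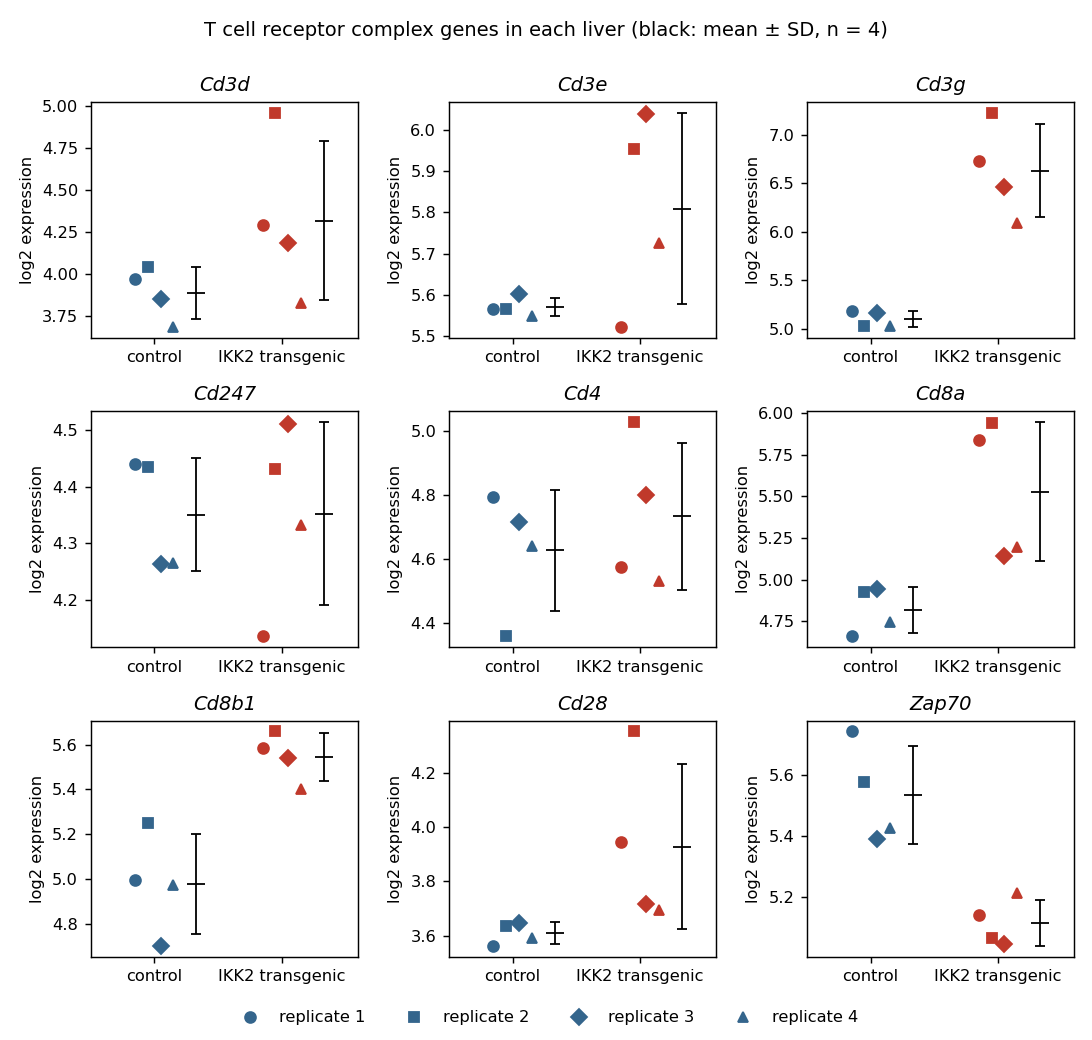
Log2 expression (vertical axes, scaled separately for each gene) of the 9 measured genes in 4 control and 4 transgenic livers, 1 point per liver with its replicate number as the symbol, and the mean ± SD in black. All 4 transgenic points lie above all controls for Cd3g, Cd8a, Cd8b1 and Cd28 and below them for Zap70.

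Cd3g, Cd3d and Cd3e are neighbours on chromosome 9, in this order, and of them only Cd3g passed. The bases before the annotated start of each are shown because of this shared locus, and those of Zap70 because it alone fell. Sequences are from RefSeq, build GRCm38.p6, 5′ to 3′ on the gene's strand, trimmed to bases outside the annotated gene. Capitals mark the Ets core AGGAAG and the E-box CAGNTG, searched on both strands.
Cd3g, chr9:44980432-44980681, minus strand: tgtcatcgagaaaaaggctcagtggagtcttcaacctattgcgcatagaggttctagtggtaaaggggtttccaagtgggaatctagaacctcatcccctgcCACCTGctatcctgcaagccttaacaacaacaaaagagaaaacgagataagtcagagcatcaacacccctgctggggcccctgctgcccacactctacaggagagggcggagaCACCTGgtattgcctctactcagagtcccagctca
Cd3d, chr9:44981536-44981768, plus strand: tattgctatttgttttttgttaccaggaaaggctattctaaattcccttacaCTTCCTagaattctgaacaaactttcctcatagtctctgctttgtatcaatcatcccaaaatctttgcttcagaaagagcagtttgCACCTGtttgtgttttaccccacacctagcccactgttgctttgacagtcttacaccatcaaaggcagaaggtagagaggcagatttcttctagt
Cd3e, chr9:45009664-45009861, minus strand: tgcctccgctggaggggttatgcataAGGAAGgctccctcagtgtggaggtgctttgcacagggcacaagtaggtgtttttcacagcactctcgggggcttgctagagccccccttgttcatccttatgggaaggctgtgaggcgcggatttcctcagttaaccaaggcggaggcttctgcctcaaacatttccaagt
Zap70, chr1:36761548-36761797, plus strand: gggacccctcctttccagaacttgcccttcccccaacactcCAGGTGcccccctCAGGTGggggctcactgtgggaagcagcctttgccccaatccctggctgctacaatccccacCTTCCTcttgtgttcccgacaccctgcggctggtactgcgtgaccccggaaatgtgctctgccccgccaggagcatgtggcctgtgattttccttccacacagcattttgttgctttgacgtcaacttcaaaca
Cd3g and Cd3d are transcribed away from each other. The 250 bases before Cd3g held 2 E-boxes and 0 Ets cores, and the 250 before Zap70 held 2 E-boxes and 1 Ets core. An E-box lay in 44.8% and an Ets core in 29.5% of all 32851 RefSeq start windows of that length. The 233 bases before Cd3d held 1 of each, which 42.5% and 27.5% of windows of that length also held. The 198 bases before Cd3e held 1 Ets core (23.7% of windows) and 0 E-boxes (38% of windows). The Runx motif TGTGGT and the NF-kB consensus, searched in the same way, had 0 matches in these 4 windows, against 14% and 7.25% of all windows of 250 bases, 13.3% and 6.75% of those of 233, and 11.4% and 5.65% of those of 198. The matches did not overlap each other. Of the 10 genes, 7 had an entry in the RefSeq table.

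Cd3g encodes CD3 gamma, which pairs with CD3 epsilon in the complex. In transgenic replicates 1 to 4 it read 6.73, 7.23, 6.46 and 6.09, whereas the controls, in the same order, read 5.18, 5.03, 5.16 and 5.02. Every transgenic liver stood well above every control, with replicate 2 the highest and replicate 4 the lowest of its group. The log2 fold change was 1.53 (2.89-fold, SE 0.20, 95% interval 1.08 to 1.98, adjusted p = 0.00602). The call held in all 17 alternative analyses, with adjusted p from 0.000468 to 0.036. The filters on dim probe sets among them used the mean of all arrays, which includes the higher transgenic values.

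Cd3d, the delta chain, which also pairs with epsilon, read 4.29, 4.96, 4.19 and 3.83 in the transgenic livers and 3.97, 4.04, 3.85 and 3.69 in the controls. Only transgenic replicate 4 lay inside the control range, and replicate 2 was the highest of all. The log2 fold change of 0.43 did not pass (SE 0.21, 95% interval -0.03 to 0.89, adjusted p = 0.173).

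Cd3e, the epsilon chain, read 5.52, 5.95, 6.04 and 5.72 in transgenic replicates 1 to 4. Its controls were close together at 5.57, 5.57, 5.60 and 5.55. Transgenic replicate 1 lay below all controls and the other transgenic livers above them. The log2 fold change of 0.24 did not pass (SE 0.11, 95% interval -0.02 to 0.49, adjusted p = 0.169).

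Cd247, the zeta chain that carries most of the signalling motifs, read 4.14, 4.43, 4.51 and 4.33 in the transgenic livers and 4.44, 4.43, 4.26 and 4.27 in the controls. The control range lay inside the wider transgenic one, with transgenic replicate 1 below every control and replicate 3 above every control, and the log2 fold change was 0.0019 (95% interval -0.22 to 0.23, adjusted p = 0.99). Its sign depends on single arrays, with -0.02 and -0.05 without transgenic replicates 2 and 3, and -0.03 for both analyses without control replicate 3 or 4.

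The difference between chains was tested within arrays. For each pair of CD3 chains and for Cd8a with Cd8b1, the log2 difference in each liver was compared between the groups by an exact permutation test, two-sided. These 7 pairs were chosen after the values were seen, and 4 livers against 4 cannot give a p below 0.0286. None of the 7 reached a p under 0.05 after Benjamini-Hochberg adjustment over the pairs, so no difference between chains is called. With 7 pairs, an adjusted p under 0.05 needed more pairs at that lowest p than reached it. The test therefore does not show that the chains changed alike. The log2 fold change of Cd3g exceeded that of Cd3d by 1.10, that of Cd3e by 1.29 and that of Cd247 by 1.53 (exact p = 0.0286, adjusted p = 0.05 for each). For these 3 pairs, and for Cd3e over Cd247, the within-liver differences did not overlap between the groups. The difference of Cd3g and Cd3d varied little among livers of one group, with an SD of 0.08 in the transgenic and 0.16 in the control livers. The values were 0.19 for Cd3d over Cd3e (exact p = 0.457) and 0.43 for Cd3d over Cd247 (exact p = 0.143). For Cd3e over Cd247 the value was 0.24 (exact p = 0.0286, adjusted p = 0.05), and 0.14 after quantile normalization (exact p = 0.143).

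**Figure D2:**
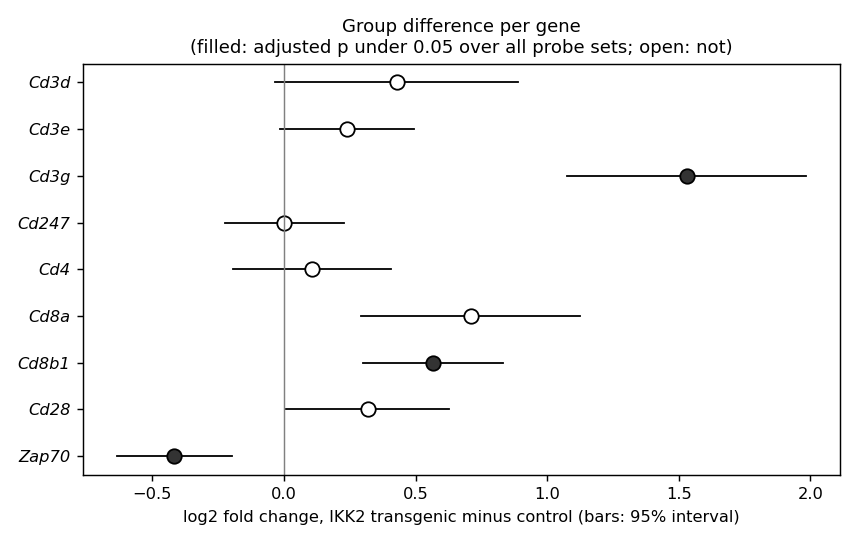
Log2 fold change, transgenic minus control (horizontal axis), of the 9 measured genes with the 95% interval of limma's estimate from 4 livers a group. Filled points passed at an adjusted p under 0.05: Cd3g at 1.53, Cd8b1 at 0.57 and Zap70 at -0.42.

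CD8 is a dimer of alpha and beta chains on cytotoxic T cells, while alpha-alpha dimers also occur on other lymphocytes and on some dendritic cells. Cd8b1, the beta chain, read 5.58, 5.66, 5.54 and 5.40 in the transgenic livers and 4.996, 5.25, 4.70 and 4.97 in the controls. The transgenic livers were close to each other and all above the controls, of which replicate 2 came nearest. Cd8b1 rose by 0.57 (1.48-fold, SE 0.12, adjusted p = 0.0312). Leaving out transgenic replicate 1 ended this call (adjusted p = 0.1), as did leaving out control replicates 1, 3 or 4 (0.0801, 0.0735 and 0.0733) and testing all deposited probe sets (0.0556), over a range of 0.0103 to 0.1.

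Cd8a, its neighbour on chromosome 6 and the alpha chain, read 5.84, 5.94, 5.14 and 5.197 in the 4 transgenic livers. Its controls read 4.66, 4.93, 4.94 and 4.74. Replicates 1 and 2 stood far above the controls, and replicates 3 and 4 just above them. The log2 fold change of 0.71 had a wider spread than that of Cd8b1 and did not pass (1.64-fold, SE 0.19, adjusted p = 0.053). Among 16 alternatives it passed in 6: after quantile normalization (adjusted p = 0.0384), with the dimmest 30% of probe sets removed (0.0432), with trend and robust moderation (0.0455), with array weights (0.0395), and without transgenic replicates 3 or 4 (0.0305 and 0.0285). The fold change of Cd8a exceeded that of Cd8b1 by 0.14 (exact p = 0.571, two-sided permutation test).

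Cd4, the co-receptor of helper and regulatory T cells, read 4.58, 5.03, 4.80 and 4.53 in the transgenic livers and 4.79, 4.36, 4.72 and 4.64 in the controls. The groups overlapped over most of their range, with a log2 fold change of 0.11 (SE 0.13, 95% interval -0.19 to 0.41, adjusted p = 0.578), and its sign turned with array weights (-0.024). Changes beyond 0.41 upward lie outside this interval.

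Cd28, the receptor that binds CD80 and CD86 on presenting cells, read 3.95, 4.35, 3.72 and 3.70 in the transgenic livers and 3.56, 3.64, 3.65 and 3.59 in the controls. The groups did not overlap, although transgenic replicates 3 and 4 were only just above the highest control. A log2 fold change of 0.32 did not pass (SE 0.14, adjusted p = 0.143). With all genes put into 4 equal groups by mean level, Cd28 and Cd3d belonged to the dimmest group, where only 0.321% of genes were called higher.

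Zap70, the kinase recruited to the phosphorylated CD3 and zeta chains, read 5.14, 5.07, 5.05 and 5.21 in the transgenic livers. Its controls read 5.74, 5.57, 5.39 and 5.43, so that all transgenic livers were lower than any control. Zap70 fell by 0.42 on the log2 scale (1.33-fold, SE 0.10, adjusted p = 0.0403). It lies in the next dimmest of the 4 groups, whose median log2 fold change was -0.17 and where 1.66% of genes were called lower. This call is fragile: it was lost in 11 of 16 alternatives, with the direction kept and adjusted p from 0.0275 to 0.111. They include both scalings between arrays (0.0526 after quantile normalization and 0.0843 with array medians centred) and the replicate number as a block (0.0647). Without transgenic replicates 1, 2 or 3 the adjusted p was 0.111, 0.0571 and 0.0535, and without control replicates 1 to 4 it was 0.093, 0.106, 0.0694 and 0.0708.

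The livers of the transgenic group differed from each other. The mean over the 9 genes was 5.09, 5.40, 5.05 and 4.89 in transgenic replicates 1 to 4, against 4.66 to 4.77 in the controls. For 6 of the 9 genes transgenic replicate 2 had the highest reading of its group. This array also stood apart over all probe sets, with a median correlation of 0.977 with its group against 0.990 for each of the other transgenic arrays. Without it Cd3g and Cd8b1 still passed.

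Markers of other leukocytes were called in the same livers. Of 12 macrophage markers 9 rose, and their mean was 8.57 to 9.92 in the transgenic and 7.28 to 7.72 in the control livers; the lysozyme Lyz2 rose by 2.84 (adjusted p = 0.000697). Of 12 dendritic cell markers 6 rose (5.50 to 6.03 against 4.83 to 5.02), among them the lectin Cd209a by 1.92 (adjusted p = 0.000942). Of 12 NK cell markers, some of which T cells share, 2 rose (4.28 to 4.93 against 3.93 to 4.08): Nkg7, a granule protein, by 1.52, and Klrd1, the receptor chain CD94, by 0.98. Of 11 B cell markers 2 rose, Bank1 by 1.16 and Cd37 by 0.50, with list means of 4.50 to 4.78 against 4.35 to 4.54; the median of this list was -0.05, and 6 of the 11 log2 fold changes were negative. Nkg7 lost its call without control replicates 2, 3 or 4 (0.064, 0.0565 and 0.0566), and Cd37 in 6 of 17 alternatives. Of 8 endothelial markers 1 rose, the scavenger receptor Stab1, by 0.80 (adjusted p = 0.0219); this call was lost with the replicate block (0.0552), without transgenic replicate 1 (0.0798) and without control replicates 2, 3 or 4 (0.066, 0.0701 and 0.052). Of 10 neutrophil markers 0 passed limma's test, with 2 at an unadjusted p under 0.05 and the smallest p at Ltf (0.23, adjusted p = 0.127). Of 6 genes of immature thymocytes 0 passed as well, with 4 at an unadjusted p under 0.05 and the smallest p at Dntt (-0.34, adjusted p = 0.0939), and their means were 3.77 to 3.85 against 3.89 to 4.05. The counts at an unadjusted p have no share of all genes beside them. Log2 fold changes were negative for 5 of the 6 thymocyte genes, with a list median of -0.19. All 6 lay in the 2 dimmest of the 4 equal groups by mean level, where the medians over all genes were -0.10 and -0.17. Themis, which the receptor signalling list also holds, had 0.27 (unadjusted p = 0.0392, adjusted p = 0.133). Rag1 and Rag2, which recombine the receptor genes in the thymus, read 3.14 to 3.49 and 2.72 to 2.86 in the transgenic livers. Their controls read 3.47 to 4.12 and 2.89 to 3.01. Transgenic replicate 2 had the highest mean for the macrophage, dendritic, NK and B cell lists too. The part of these cells in the changes of the receptor genes was not tested. Klrd1, Bank1, Rag1, Rag2 and Themis were singled out after their values were seen.

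**Figure D3:**
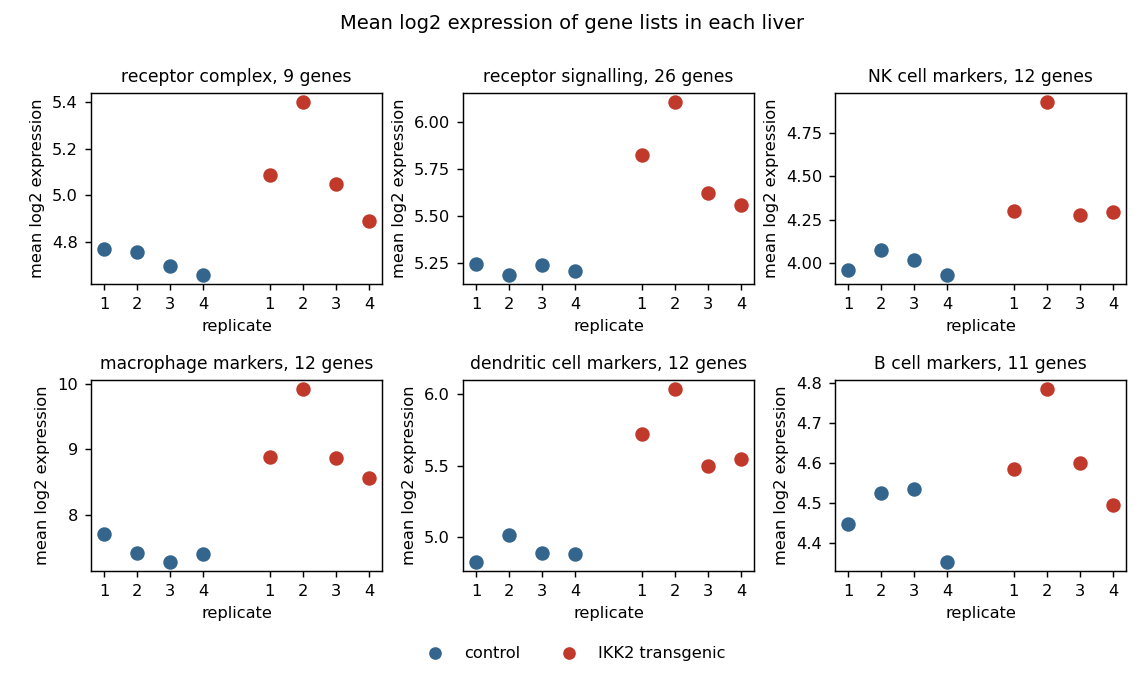
Mean log2 expression (vertical axes, scaled separately for each panel) of the receptor complex genes, receptor signalling genes and markers of NK cells, macrophages, dendritic cells and B cells in each of 8 livers, by replicate number. Transgenic replicate 2 is the highest point in every panel, and the groups overlap in the panel of B cell markers.

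Beyond the receptor, 26 of 28 genes that carry its signal inward were measured: adaptors, kinases, phosphatases, ubiquitin ligases and transcription factors. Of these 8 rose, 0 fell and 18 did not pass, which is 30.8% called, with a median log2 fold change of 0.36. Ptprc, the phosphatase CD45 that all leukocytes carry, read 8.07 to 9.33 in the transgenic and 6.06 to 6.55 in the control livers, and rose by 2.30 (SE 0.24, adjusted p = 0.00149). Rasgrp1, which activates RAS downstream of diacylglycerol, rose by 2.09 (SE 0.37, adjusted p = 0.0176). Vav1, an exchange factor for RAC used by all blood cells, rose by 1.71 (SE 0.28, adjusted p = 0.0125). Lat, the membrane adaptor that ZAP-70 phosphorylates, was chosen after its value was seen; it rose by 0.37 (SE 0.09, adjusted p = 0.0437). Ptprc passed in all 17 alternatives. Rasgrp1 lost its call without transgenic replicate 1 (0.0688) and without control replicates 2, 3 or 4 (0.0682, 0.0608 and 0.059), and Vav1 without transgenic replicate 1 (0.0511) and control replicates 2 or 3 (0.0576 and 0.0514). Several of these genes are shared with macrophages, NK cells and B cells. The number called was 1 without transgenic replicate 1 and 13 without transgenic replicate 4; without control replicates 1 to 4 it was 3, 1, 1 and 2.

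Co-stimulatory and inhibitory receptors and their ligands came next. All 30 named were measured, and 8 rose, 0 were lower and 22 did not pass (26.7% called), with a median of 0.12. The highest were not on the T cell side alone. Cd48, a ligand of CD2 and of the NK receptor 2B4 found on most leukocytes, read 5.66 to 7.31 in the transgenic and 4.39 to 4.53 in the control livers, and rose by 1.85 (SE 0.29, adjusted p = 0.0112). Cd86, the CD28 ligand on macrophages and dendritic cells, rose by 1.74 (SE 0.26, adjusted p = 0.00953). Icosl, the ligand of ICOS, rose by 1.28 (SE 0.23, adjusted p = 0.018). Cd48 and Cd86 passed in every alternative that kept them, while Icosl did not pass without transgenic replicate 1 (0.0688) or without control replicates 1 to 4 (0.0514, 0.0682, 0.0624 and 0.0593). The other 5 that rose were Cd80, the second CD28 ligand, at 1.00, the receptors Ly9 at 1.00, Icos at 0.71 and Btla at 0.56, and the adhesion receptor Cd2 at 0.55, named here after their values were seen. Both CD28 ligands thus passed, while Cd28 itself, at 0.32, did not. The number called was 2 without transgenic replicate 1, and 3, 2, 4 and 3 without control replicates 1 to 4. It was 5 with array medians centred, with the replicate block and with all deposited probe sets. It was 3 without the dimmest 50% of probe sets, a filter that removed Cd48, Icos, Btla, Cd2 and Cd80.

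The list of T cell lineage genes was thinner. Of 30 named, 18 were measured, and the constant segments of the receptor's own chains were not among them. Of the 18, 4 rose, 0 fell and 14 did not pass (22.2% called), and the median was -0.01. Il2rb, the interleukin-2 receptor beta chain shared by T and NK cells, read 5.74, 6.77, 5.64 and 5.38 in the transgenic livers and 4.49 to 4.75 in the controls, and rose by 1.21 (SE 0.25, adjusted p = 0.0307). Gimap3, a GTPase of lymphocytes, rose by 0.97 (SE 0.20, adjusted p = 0.0308), and Il7r, the interleukin-7 receptor chain of naive and memory T cells, by 0.74 (SE 0.17, adjusted p = 0.0373). Satb1, a chromatin organiser of thymocytes and T cells named after its value was seen, rose by 0.62 (adjusted p = 0.0373). None of the 4 passed without transgenic replicate 1 or without any 1 of the controls, nor in the test of all deposited probe sets. The filter on the dimmest 30% removed Gimap3 and Il7r and left 2 genes called. The filter on the dimmest 50% removed all 4, so its count of 0 is not a test of them.

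**Figure D4:**
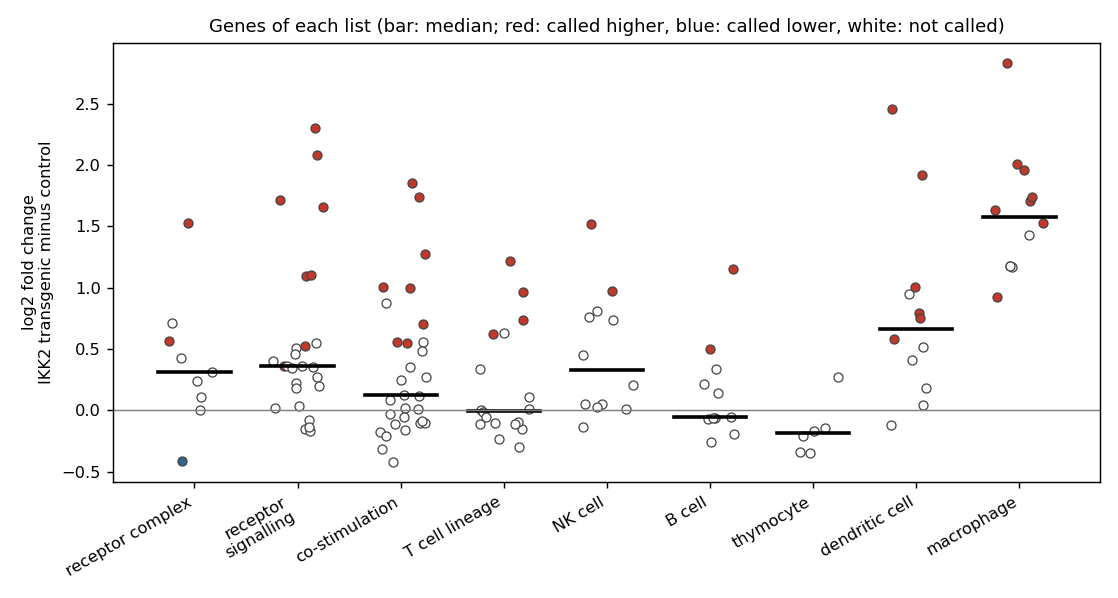
Log2 fold change, transgenic minus control (vertical axis), of every measured gene of the receptor complex, of 3 lists of T cell genes and of markers of other leukocytes, with the median of each list as a bar. Filled points passed the test; the medians are 0.32 for the receptor complex, 0.36 for receptor signalling, 0.12 for co-stimulation, -0.01 for the T cell lineage and 1.58 for macrophages.

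The genes most like the CD3 chains in these arrays were looked for over all genes outside the complex, with predicted and clone names left out. With the mean of Cd3d, Cd3e and Cd3g as the reference, the 5 highest Pearson correlations over the 8 arrays, which hold the group difference as well, were those of Clec4f (0.995), Nkg7 (0.994), Dcaf15 (0.993), Parp8 (0.993) and Prkch (0.992). Clec4f is a lectin of Kupffer cells and rose by 0.93 (adjusted p = 0.0227). Prkch, a protein kinase C, rose by 0.81 (adjusted p = 0.0185). Parp8 rose by 1.20 (adjusted p = 0.0114) and Dcaf15, a substrate receptor of a ubiquitin ligase, by 0.42 (adjusted p = 0.0487). Parp8 passed in all 16 alternatives that kept it, whereas the calls of Clec4f and Prkch were lost in 5 of 17 each and that of Dcaf15 in 11 of 16. After each group's mean was taken off, the highest were Rgs1 (0.995), Htra2 (0.994), Ifi213 (0.990), Parp8 (0.990) and Cd300e (0.989). Rgs1, a regulator of G protein signalling in lymphocytes, read 4.67, 5.50, 4.63 and 4.00 in transgenic replicates 1 to 4, so that replicate 2 was the highest and replicate 4 the lowest, as in the CD3 mean (5.52, 6.05, 5.56 and 5.22). The correlations are the extremes of the genes searched, most of the 19938, over 8 arrays and describe these arrays alone.

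Among the 9 genes themselves, the deviations from group means were positively correlated in 26 of 36 pairs, with a median of 0.30 and a range of -0.39 to 0.93. With the mean of the CD3 chains, of which Cd3d, Cd3e and Cd3g are parts, these correlations were 0.97 for Cd3d, 0.95 for Cd3g, 0.89 for Cd28, 0.71 for Cd4, 0.66 for Cd8a, 0.46 for Cd3e, 0.41 for Cd8b1, 0.34 for Cd247 and -0.21 for Zap70. Cd3d, Cd3g, Cd28 and Cd8b1 had the same order of transgenic livers, with replicate 2 highest, then 1, 3 and 4. Cd3e and Cd247 had replicate 3 highest and replicate 1 lowest. No other genes were set beside these pairs as a background. Htra2, outside the complex, reached 0.994 with the CD3 mean, and its group difference did not pass limma's test (0.14, adjusted p = 0.439). Htra2 was picked as an extreme of the genes searched, so its value is no measure of other genes in general. Whether the complex differs from other genes in these correlations was not tested.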

How the data were processed

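Total RNA from frozen liver was labelled as sense targets of whole transcripts, per the labels. The authors deposited log2 expression, with 1 value for each probe set on each array. Per the submitters' processing notes it was made in Affymetrix Expression Console, whose version and normalization were not given in the sources used here; log2 as the scale was read from the values. Of 35556 probe sets, 21789 had 1 gene symbol, 1621 several and 12146 none. No further normalization was applied. Limma 3.58.1 in R 4.3.3 fitted the group as only term to the 21789, with empirical Bayes moderation, two-sided tests and Benjamini-Hochberg adjustment; genes were read through the brightest probe set. Intervals use the moderated variance. In a simulation of 19938 genes, 48 of 50 raised by 1 and 50 of 50 raised by 2 on the log2 scale were recovered, with 11 false calls. The same numbers were recovered of genes lowered by 1 and by 2. Changes under 1, the size seen for every measured receptor complex gene but Cd3g, were not simulated.

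Members and lists were chosen with earlier results of these data known. Named genes are all members, Ikbkb, up to 3 called genes with the highest and 3 with the lowest fold changes of each T cell list, the smallest p of each marker list and the 5 genes most like the CD3 mean by each measure; exceptions are stated where they occur. The labels call the arrays biological replicates, and their number limits the precision. Alternatives were 2 scalings, 2 filters on dim probe sets, the mean over each gene's probe sets, other moderation, array weights, the replicate block, all deposited probe sets and leaving out each array.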

Additional observations from a re-analysis of the deposited data

Results flagged for a closer look

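Of 70 groups of 4 livers checked for a single distant reading, 4 had one; chance gives about 1 in 20. None of them was among the 18 groups of the receptor complex genes. All 4 lay in the controls: Cd86 in replicate 2 at 5.41 against 5.21 to 5.23 in the others, Il2rb in replicate 3 at 4.49 against 4.72 to 4.75, Gimap3 in replicate 3 at 3.28 against 3.61 to 3.63, and the B cell marker Cd37 in replicate 4 at 5.50 against 5.67 to 5.68.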

How the results depend on the processing

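Of the 9 receptor complex genes, Cd3g kept its call in every alternative, Cd3d, Cd3e, Cd247, Cd4 and Cd28 passed in none that kept them, and Cd8a, Cd8b1 and Zap70 changed sides. The count of higher genes, 2, was 1 with all deposited probe sets, and 1 to 3 when 1 array was left out. It was also 1 without the dimmest 50% of probe sets, a filter that removed Cd8b1 itself. The count of lower genes, 1, was 0 after quantile normalization, with array medians centred, with the replicate block and with all deposited probe sets, and 0 to 1 when 1 array was left out. The filter on the dimmest 50% removed Zap70 itself, so its count of 0 is not a test of that gene. Cd247 ranged from -0.0507 to 0.0740 when 1 array was left out and was below 0 without transgenic replicates 2 or 3 and control replicates 3 or 4. Other reversals were Cd4 with array weights (-0.024), Htra2 after quantile normalization (-0.00086), and Ifi213 with array weights (-0.14) and without transgenic replicate 2 (-0.19, in a range up to 0.67 over the arrays left out); the cause was not tested. Over all genes 1265 were called as deposited, 715 with array medians centred, 479 with all deposited probe sets and 202 to 2580 without 1 array. Higher genes made up 73.7% of calls, 62.6% after quantile normalization and 86.4% with medians centred. Receptor signalling calls, 8, became 3 with all deposited probe sets and 1 to 13 without 1 array. Co-stimulation calls, 8, became 5 with medians centred, with the replicate block and with all deposited probe sets, and 2 to 10 without 1 array. They became 3 without the dimmest 50%, which removed Cd48, Icos, Btla, Cd2 and Cd80. T cell lineage calls, 4, became 0 with all deposited probe sets, and 0 to 5 without 1 array. They became 2 without the dimmest 30% and 0 without the dimmest 50%, filters that removed called genes of this list. The labels do not say that livers of equal replicate number share a litter, day or batch. Their deviations from group means correlated at 0.28, -0.03, 0.27 and -0.13, and 4 of 8 arrays matched their own number best. These values do not settle whether the numbers mark pairs. With the replicate block 844 genes were called, and among the 9 genes the block ended only the call of Zap70. Of the 9 genes only Cd3e and Cd3g read above the middle of all genes by the mean of all 8 arrays. For Cd3g this rests on the transgenic livers, with a mean of 6.63. Its control mean of 5.10 lay below 5.54, the highest all-array mean in the 2 dimmer groups of genes. No background was measured, so how far any of the 9 genes stands above it is not known.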
